A study of Mus musculus with 10 samples.

Results

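The effect of full-length neurofilament light chain (FL-NfL) on the cell make-up of the mouse hippocampus was read from 7 of the 10 single-cell libraries of the series. These were every library labelled with full-length NfL (n = 3) and every library labelled with vehicle (n = 4). They held 44424 of the 68914 annotated cells. All mice were male wild-type C57BL/6 animals of 11 weeks. Each received vehicle or protein at 1 mg/ml in both hippocampi, and tissue was collected on day 3 and sorted for live cells. Libraries 1 and 2 of each group belong to the batch labelled b1, and vehicle libraries 3 and 4 and FL-NfL library 3 to b2. The third group, 3 libraries after the coiled-coil part of the protein (CC-NfL, 1 mg/ml), entered the shared fit and is used below for comparison. No group received an unrelated protein and none was left uninjected, so the needle track is common to all groups and a response to NfL cannot be told apart from one to any protein at this dose.

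NfL is a structural protein of the axon, released into tissue fluid when axons are damaged, and is widely measured in blood and cerebrospinal fluid as a marker of such damage. Microglia are the resident macrophages of the brain parenchyma. Other macrophages live at the borders of the brain, in the meninges, perivascular spaces and choroid plexus, and further ones derive from monocytes that enter from the blood. MHC class II molecules carry peptides to helper T cells, and their level is one way in which brain macrophages are commonly divided.

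The annotation names each cell by class, cluster and, for microglia and macrophages, a finer state. The table analysed here carries cell names and map positions and no gene values, so the names could not be checked against marker genes and are used as given. Annotated cells numbered 3290 to 9761 per vehicle library and 3150 to 11329 per FL-NfL library. The share of barcodes without a cell name followed the batch. In b1 it was 48.7% and 50.3% in the vehicle libraries and 71.3% and 42.0% in the FL-NfL libraries, and in b2 it was 17.8% and 19.5% after vehicle and 17.3% after FL-NfL. Of 44221 distinct barcode sequences of annotated cells, 203 (0.459%) occurred in more than 1 of the 7 libraries. The design text counts mice, so a library is taken as a mouse, and p-values measure the spread between libraries. A share is a part of a fixed total: more cells of one class and fewer of the others cannot be told apart.

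Among the 16 classes macrophages had the largest log2 odds ratio. In the 4 vehicle libraries they took 1.60%, 1.58%, 1.54% and 1.05% of annotated cells, and in the 3 FL-NfL libraries 9.55%, 5.49% and 7.04%. The groups did not overlap, and the lowest FL-NfL library was over 3 times the highest vehicle library. Counting error was small beside this gap, since the exact 95% interval of a single library reached at most 0.927 points from its value. On the log2 odds scale the difference was 2.44 (95% interval 1.38 to 3.50, limma adjusted p = 0.0103). Within batch it was 2.27 in b1 and 2.55 in b2. The b2 value rests on 1 FL-NfL library, assumed to vary like the other groups, and the SE of the difference between batches was 1.0, so a difference of that order could not be shown. The call ended without FL-NfL library 3 (limma adjusted p = 0.0636) and in batch b1 alone (0.370).

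The class named other immune cells, which the annotation does not divide, moved with the macrophages. It took 0.310%, 0.426%, 0.246% and 0.330% of cells in the vehicle libraries and 1.54%, 1.27% and 1.47% in the FL-NfL libraries. No vehicle library reached the FL-NfL range. The log2 odds ratio was 2.16 (95% interval 0.99 to 3.34, limma adjusted p = 0.0205). The call ended on leaving out any one of vehicle libraries 1, 3 and 4 or any one FL-NfL library (limma adjusted p from 0.0529 to 0.0997), over all barcodes (0.0715) and in b1 alone (0.432). Limma called 2 of the 16 classes, 12.5%, and the same share, 12.5%, had FL-NfL libraries all above or all below the vehicle libraries.

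Both rises can be set against microglia, which were counted in the same libraries. There were 6.60, 4.22, 4.53 and 3.09 macrophages per 100 microglia after vehicle and 29.5, 14.3 and 28.2 after FL-NfL, a 5.14-fold difference of geometric means (exact two-sided permutation p = 0.0286, the smallest these libraries allow). The log2 difference of this ratio was 1.96 in b1 and 2.92 in b2, where the microglial share of the FL-NfL library was low. Other immune cells numbered 1.03 ± 0.237 per 100 microglia after vehicle and 4.66 ± 1.30 after FL-NfL (SD, n = 4 and 3, exact permutation p = 0.0286). There were 458 ± 140 macrophages per 100 other immune cells after vehicle and 510 ± 97.9 after FL-NfL (exact permutation p = 0.543). Over 7 such ratios, the adjusted exact permutation p of 4 lay at the threshold of 0.05 and not under it, so 0 of 7 (0.0%) were called, 4 of them having an unadjusted p under 0.05.

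Microglia themselves took 24.2%, 37.5%, 33.9% and 33.8% of cells in the vehicle libraries and 32.4%, 38.3% and 24.9% in the FL-NfL libraries. The lowest library of each group lay near 24%, and the ranges overlapped almost wholly. The log2 odds ratio was -0.07 (95% interval -0.91 to 0.77, limma adjusted p = 0.993), an interval that spans changes of odds from 0.532-fold to 1.70-fold. The log2 odds ratio turned to 0.32 in b1 alone. In b2 it was -0.63, from 1 FL-NfL library at 24.9% against vehicle libraries at 33.9% and 33.8%. All 3 immune classes together made up 34.1% ± 5.66 of cells in vehicle libraries and 40.6% ± 6.31 in FL-NfL libraries (SD, n = 4 and 3, exact permutation p = 0.229).

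**Figure D1:**
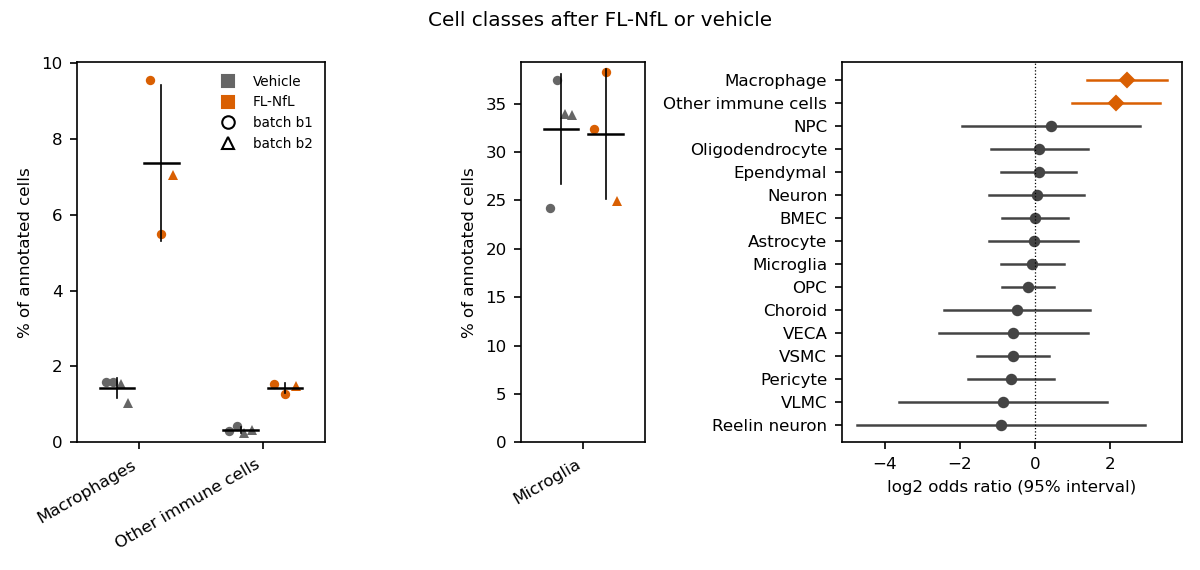
Left and middle, percent of annotated cells for macrophages, other immune cells and microglia, 1 point per library with batch by symbol, the bar at the group mean and the line at ± 1 SD. Right, log2 odds ratio of each of the 16 classes with its 95% interval; orange marks limma adjusted p under 0.05 and diamonds mark classes whose groups do not overlap, which are macrophages at 2.44 and other immune cells at 2.16.

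No class of glia, neurons, vessels or ventricle lining passed. Fitted alone as shares of the non-immune cells, 0 of 13 (0.0%) were called by limma, and the quasi-binomial model also called 0. At an unadjusted p under 0.05 there were 0, and in none (0.0%) did the groups separate. What these libraries could show differed widely between classes. The values that follow are shares of all annotated cells. Among these 13 classes the interval of the log2 odds ratio was narrowest for OPC, the precursors of oligodendrocytes, at -0.88 to 0.50, and it was -0.87 to 0.88 for BMEC, an abbreviation usually read as brain microvascular endothelial cells. Astrocytes, the supporting glia, took 1.85% to 8.64% after vehicle and 3.37% to 6.12% after FL-NfL (interval -1.23 to 1.14). Oligodendrocytes took 8.25% to 24.3% and 9.71% to 23.8% (-1.18 to 1.40). Neurons took 2.09% to 10.6% and 4.70% to 8.22% (-1.22 to 1.30). OPC took 14.8% to 19.0% after vehicle and 13.6% to 17.9% after FL-NfL, with FL-NfL libraries 1 (13.6%) and 3 (14.1%) below every vehicle library. As shares of non-immune cells, those 2 libraries (24.1% and 21.2% OPC) lay inside the vehicle range of 20.9% to 31.4%. FL-NfL library 2 (32.5%) lay above that range. BMEC took 1.33% to 1.70% and 1.37% to 2.04%, with FL-NfL library 1 above every vehicle library. In astrocytes, oligodendrocytes and neurons the FL-NfL range lay inside the vehicle range. So did that of ependymal cells, which line the ventricles, at 0.395% to 1.31% and 0.857% to 0.924% (-0.90 to 1.08). Pericytes, which wrap capillaries, took 1.55%, 1.52%, 1.06% and 0.875% after vehicle and 0.474%, 1.02% and 1.03% after FL-NfL (-1.78 to 0.51), with FL-NfL library 1 below every vehicle library. VECA took 0.152% to 1.32% and 0.119% to 0.603%, and VLMC 0.0912% to 0.522% and 0% to 0.603%, with 0 of 4220 cells in FL-NfL library 1. NPC, usually neural progenitor cells, followed the library number: the libraries numbered 1 held 16.8% in the vehicle group, 13.5% in the FL-NfL group and 20.5% in the CC-NfL group, and no other library held more than 5.88%. For Reelin neurons the interval ran from -4.74 to 2.94, since vehicle library 4 and FL-NfL library 1 each held 1 such cell. VSMC, usually vascular smooth muscle cells, took 0.181%, 0.182%, 0.861% and 0.591% after vehicle and 0.0711%, 0.159% and 0.574% after FL-NfL. The range overlapped over all libraries, while within its own batch each FL-NfL library lay below every vehicle library (log2 odds ratio -0.59, limma adjusted p = 0.948, exact permutation within batch p = 0.0556, the smallest possible there). As a share of non-immune cells this did not hold. FL-NfL library 2 (0.289%) then lay above vehicle library 1 (0.245%) of the same batch (exact permutation within batch p = 0.111). The b1 libraries held only 7 and 6 VSMC after vehicle and 3 and 5 after FL-NfL. Choroid cells varied from 2.93% to 15.4% between vehicle libraries and from 2.87% to 11.1% between FL-NfL libraries, a spread within each group that was far wider than the difference of the group means.

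The macrophages of FL-NfL libraries were also differently composed. Of 8 named states, 6 held enough cells to test, and limma called 5 of them, 83.3%, as shares of macrophages. The same share, 83.3%, had groups that did not overlap, and the quasi-binomial model called 6. These shares sum to a fixed total and are not independent of each other. The vehicle libraries had few macrophages to divide, 62, 52, 149 and 92 against 398, 173 and 793 after FL-NfL.

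The 3 states named activated together made up 8.06%, 23.1%, 10.1% and 7.61% of macrophages after vehicle and 63.6%, 39.9% and 70.9% after FL-NfL. The lowest FL-NfL library lay well above vehicle library 2, the highest of its group (exact permutation p = 0.0286). Activated_3 was the steadiest of them: 8.06%, 7.69%, 5.37% and 4.35% against 28.6%, 20.2% and 23.6% of macrophages (log2 odds ratio 2.06, SE 0.33, limma adjusted p = 0.00122). Its call held without any one library and ended in b1 alone (0.0800). Activated_2 was nearly missing after vehicle, with 0, 2, 5 and 0 cells, against 76, 13 and 178 cells after FL-NfL. Its share rose by a log2 odds ratio of 3.48 (SE 0.90, limma adjusted p = 0.00900). A count of 0 among 62 and 92 macrophages allows shares of up to 4.84% and 3.26%. Activated_1 counted 0, 6, 2 and 3 cells after vehicle and 63, 21 and 197 after FL-NfL, or 0% to 11.5% and 12.1% to 24.8% of macrophages (log2 odds ratio 2.92, SE 0.95, limma adjusted p = 0.0216). Vehicle library 2 came close to FL-NfL library 2 here. The Activated_2 call ended without FL-NfL library 3 (limma adjusted p = 0.0626), and the Activated_1 call without vehicle library 1 (0.0691) or without FL-NfL library 1 (0.0606), 2 (0.0502) or 3 (0.0981). Both ended in b1 alone (0.0800 and 0.190) and without all libraries numbered 1 (0.127 and 0.142).

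The states named for MHC class II divided. MHC2_high_2 took 1.61%, 7.69%, 6.04% and 4.35% of macrophages after vehicle and 10.6%, 12.1% and 13.9% after FL-NfL, and it rose (log2 odds ratio 1.42, SE 0.54, limma adjusted p = 0.0347). MHC2_low took 38.7%, 50%, 30.9% and 30.4% after vehicle and 9.80%, 16.2% and 8.83% after FL-NfL, and fell as a share of macrophages (-2.40, SE 0.42, limma adjusted p = 0.00122). In both states every FL-NfL library lay outside the vehicle range. MHC2_high_1 took 43.5%, 11.5%, 51.0% and 40.2% against 13.1%, 28.9% and 4.41%, where vehicle library 2 overlapped the FL-NfL group (-1.99, SE 0.96, limma adjusted p = 0.0706). Without vehicle library 2 it passed (limma adjusted p = 0.000557). The MHC2_high_2 call ended without vehicle library 1 (limma adjusted p = 0.0985) or 4 (0.0677), without FL-NfL library 1 (0.0619), 2 (0.0664) or 3 (0.123), with no minimum of cells (0.0580), in b1 alone (0.190) and without all libraries numbered 1 (0.127). The MHC2_low call ended in b1 alone (0.0647).

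The 2 states with lower estimates within macrophages had estimates above 0 when counted per annotated cell. MHC2_low made up 0.620%, 0.790%, 0.471% and 0.318% of all annotated cells after vehicle and 0.924%, 0.889% and 0.618% after FL-NfL (log2 odds ratio 0.48, 95% interval -0.45 to 1.42, limma adjusted p = 0.290). MHC2_high_1 made up 0.697%, 0.182%, 0.779% and 0.420% against 1.23%, 1.59% and 0.309% (0.79, 95% interval -0.80 to 2.37, limma adjusted p = 0.290). Neither passed on this scale. The other 4 tested states rose on this scale, by log2 odds ratios of 3.67 for MHC2_high_2 to 5.59 for Activated_2 (limma adjusted p at most 0.00112). The mean macrophage share was 5.92 percentage points higher after FL-NfL. Of these points 71.0% fell to the 3 activated states, 13.6% to MHC2_high_2, 8.84% to MHC2_high_1 and 4.40% to MHC2_low. Activated macrophages numbered 0.549 ± 0.310 per 100 microglia after vehicle and 14.7 ± 7.82 after FL-NfL, 26.5-fold by geometric means (SD, n = 4 and 3, exact permutation p = 0.0286). MHC2-named macrophages numbered 3.68 ± 1.41 and 8.52 ± 1.09, a 2.43-fold difference (exact permutation p = 0.0571).

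**Figure D2:**
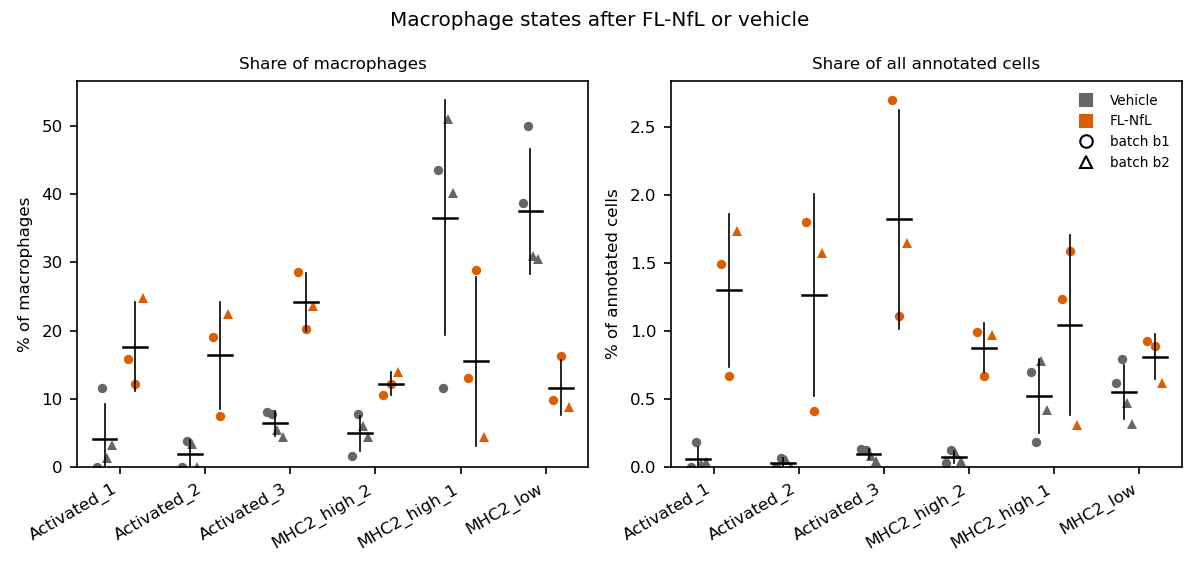
Percent of macrophages (left) and percent of all annotated cells (right) in each of the 6 tested macrophage states, 1 point per library with batch by symbol, the bar at the group mean and the line at ± 1 SD, cut at 0. MHC2_low lies lower after FL-NfL on the left (11.6% against 37.5%) and not on the right (0.810% against 0.550%).

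The remaining 2 states were too small to test. The macrophage class includes a state named Granulocytes, a blood cell type that is not a macrophage. It counted 4, 0, 1 and 16 cells after vehicle and 4, 1 and 16 after FL-NfL, and without it limma again called 5 states. Proliferating macrophages counted 1, 4, 2 and 0 cells and 8, 4 and 0 cells. In FL-NfL library 3 a count of 0 among 793 macrophages allows a share of up to 0.378%. A further 10 macrophages carried no state.

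Estimates for the states of microglia were smaller than those for macrophage states. Activated_2 was the one state whose groups did not overlap as shares of microglia, at 4.90%, 11.8%, 12.1% and 13.8% of microglia after vehicle and 22.0%, 22.6% and 16.1% after FL-NfL. FL-NfL library 3, the b2 library, lay closest to vehicle. As shares of all annotated cells the groups overlapped, at 1.19%, 4.41%, 4.09% and 4.66% after vehicle and 7.11%, 8.63% and 4.00% after FL-NfL (1.02, limma adjusted p = 0.296). Within microglia the log2 odds ratio was 1.19 (95% interval 0.12 to 2.25), and it did not pass over the 5 states (limma adjusted p = 0.151), nor as subcluster 7 among the 9 subclusters (limma adjusted p = 0.131). Homeostatic microglia, the state usual in undisturbed tissue, took 86.9%, 68.9%, 72.1% and 68.5% after vehicle and 55.0%, 56.1% and 72.0% after FL-NfL. FL-NfL library 3 lay inside the vehicle range (-0.91, 95% interval -2.0 to 0.19, limma adjusted p = 0.252). None of the 5 states (0.0%) was called by limma or by the quasi-binomial model, and 1 reached an unadjusted p under 0.05. Groups that did not overlap made up 20.0% of the states. The Activated_2 state passed on the centred log ratio scale (limma adjusted p = 0.0169), and as subcluster 7 on the arcsine scale (0.0279) and in b1 alone (0.0373).

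The homeostatic state is made of 5 subclusters, and the estimate was below 0 for each of them, from -0.56 for subcluster 1 to -0.21 for subcluster 3. Subcluster 1 took 25.1%, 18.1%, 17.6% and 20.3% of microglia after vehicle and 17.7%, 12.5% and 14.4% after FL-NfL, with FL-NfL library 1 just inside the vehicle range. As a share of all annotated cells it was below every vehicle library in 3 of 3 (-0.54, limma adjusted p = 0.412). Subcluster 5 took 8.56%, 14.0% and 22.1% of microglia after FL-NfL, which spans the vehicle range of 14.9% to 21.4% and beyond. Neither limma nor the quasi-binomial model called any of the 9 subclusters (0.0%). At an unadjusted p under 0.05 there was 1, and 11.1% had groups that did not overlap.

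The other microglial states did not separate. Activated_1 took 5.01% to 8.03% of microglia after vehicle and 9.95%, 12.7% and 5.85% after FL-NfL. Activated_3 took 0.532%, 6.08%, 4.56% and 3.83% after vehicle and 7.61%, 3.73% and 3.97% after FL-NfL, and its estimate of 0.89 turned to -0.019 without vehicle library 1, the library with 0.532%. Proliferating microglia took 2.66% to 5.98% and 5.49%, 4.98% and 2.16%. With the 3 activated states summed, 10.4%, 25.9%, 23.4% and 25.5% of microglia were activated after vehicle and 39.5%, 39.0% and 25.9% after FL-NfL (exact permutation p = 0.0571). FL-NfL library 3 equalled vehicle library 2 within 0.1 points.

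**Figure D3:**
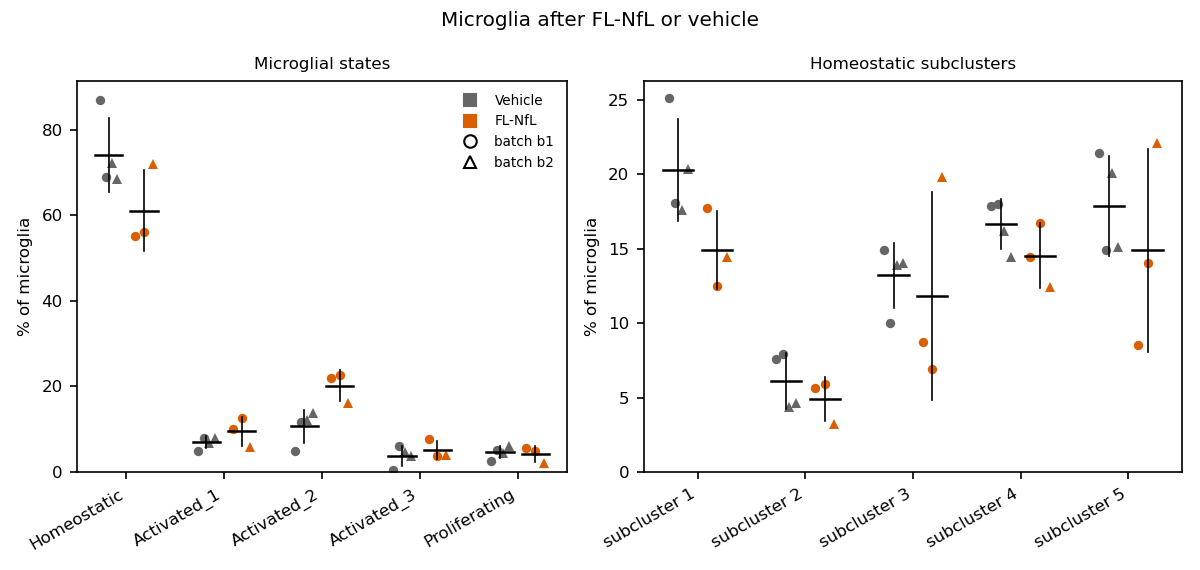
Percent of microglia in each of the 5 states (left) and in each of the 5 homeostatic subclusters (right), 1 point per library with batch by symbol, the bar at the group mean and the line at ± 1 SD. On this scale Activated_2 is the state whose groups do not overlap, and the b2 library of FL-NfL sits at 72.0% homeostatic cells, inside the vehicle range.

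The batches gave different estimates for microglia. In b1, with 2 libraries a group, the FL-NfL effect was -1.62 on homeostatic and 1.78 on Activated_2 microglia, and in b2, with 1 FL-NfL library, it was 0.11 and 0.37. The difference between batches had a limma adjusted p of 0.185 for each. Macrophage Activated_3 gave 1.77 and 2.48, and MHC2_low -2.44 and -2.19. MHC2_high_1 gave -0.40 in b1 and -4.16 in b2 (limma unadjusted p = 0.0459, adjusted p = 0.276). Limma called 0 of 16 classes, 0 of 5 microglial states and 0 of 6 macrophage states (0.0% each) for a difference between batches, and 0, 0 and 1 had an unadjusted p under 0.05. The b2 less b1 difference, and with it these counts, turned on the vehicle libraries of b1. For homeostatic microglia it was 1.73 with all libraries and 2.52 without vehicle library 2. It was 0.94 without vehicle library 1, which held 86.9% homeostatic cells. For macrophage Activated_1 it was 1.40 with all libraries, 3.46 without vehicle library 1 and -0.67 without vehicle library 2. For MHC2_high_1 these values were -3.76, -5.00 and -2.53. Each such fit leaves 1 vehicle library in b1, assumed to vary like the other groups.

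The deposited maps place cells of similar expression near each other. They show the same cells that carry the state names, so they are a picture of the shares above and not separate evidence. Vehicle macrophages, fewer in number and so more thinly spread over bins, lay mostly around MHC2_high_1 and MHC2_low, with scattered cells elsewhere, and FL-NfL macrophages filled the field of the 3 activated states. Microglia of both groups covered the same field, with lower density in the homeostatic region after FL-NfL on average over libraries. FL-NfL library 3, at 72.0% homeostatic cells, lay inside the vehicle range, and no microglial state was called by limma. The map was not tested.

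**Figure D4:**
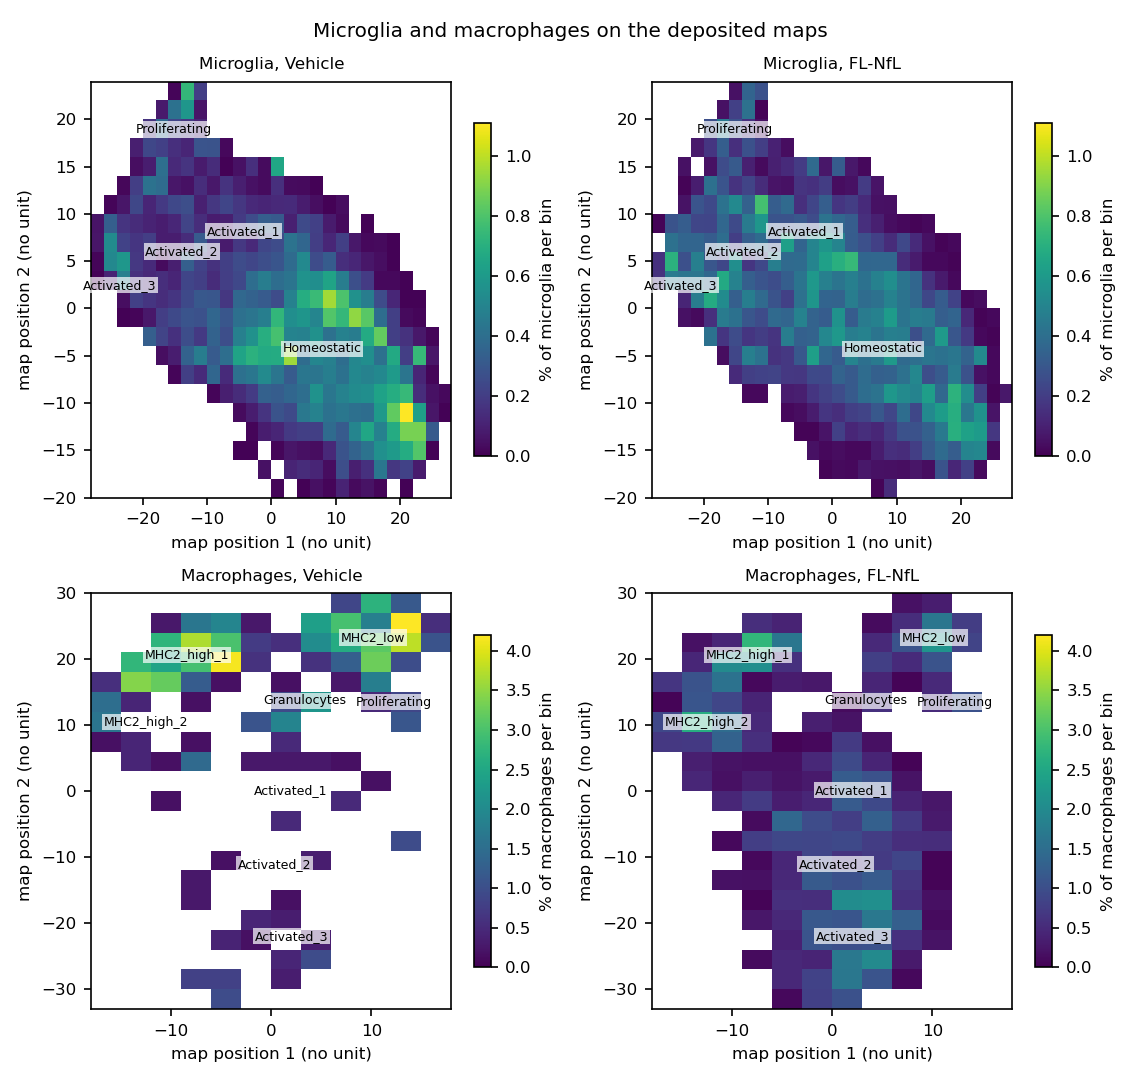
Positions of microglia (top, bins of 2 map units) and macrophages (bottom, bins of 3 map units) on the authors' maps after vehicle (left) and FL-NfL (right); colour is the percent of a library's cells in a bin, averaged over libraries, and names stand at the median position of each state, moved down for microglial Activated_3. The field of the activated macrophage states, sparse after vehicle, is filled after FL-NfL, where these states hold 58.1% of macrophages against 12.2%.

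Of the 32 clusters of the whole map 31 held enough cells to test, and limma called 2 (6.45%), clusters 32 and 29, which are the macrophages and the other immune cells under another name, and the same 6.45% had groups that did not overlap. Both cluster calls ended on leaving out any 1 of the 7 libraries. Within their own class, no cluster of 22 (0.0%) was called by limma or the quasi-binomial model. At an unadjusted p under 0.05 there were 2, and 9.09% had groups that did not overlap. Those were a pair of OPC clusters. Shares within a class sum to a fixed total, so clusters of 1 class are not independent of each other. Cluster 15 took 15.9%, 22.8%, 19.4% and 16.4% of OPC after vehicle and 32.4%, 28.1% and 29.9% after FL-NfL (log2 odds ratio 0.94, SE 0.31, limma adjusted p = 0.302). Cluster 6, the main one, took 79.3%, 73.0%, 76.4% and 81.2% after vehicle and 63.7%, 69.1% and 67.4% after FL-NfL (-0.79, SE 0.30, limma adjusted p = 0.302). The FL-NfL libraries lay outside the vehicle range for both clusters, and neither estimate passed over the 22 clusters. As shares of all annotated cells the ranges of both clusters overlapped. After CC-NfL the same clusters averaged 31.3% and 65.6% of OPC, and FL-NfL minus CC-NfL was -0.08 and 0.07 (limma adjusted p = 0.840 for each).

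Other clusters had larger estimates with more spread. Cluster 21, of which 54.6% of cells are Activated_2 microglia, took 5.75%, 19.7%, 16.1% and 19.3% of microglia after vehicle and 36.5%, 33.7% and 19.6% after FL-NfL (1.33, SE 0.58, limma adjusted p = 0.302). Cluster 16 of oligodendrocytes, the myelin-forming cells, took 1.08%, 6.61%, 18.3% and 3.23% after vehicle and 10.8%, 20.9% and 11.8% after FL-NfL (1.83, SE 0.88, limma adjusted p = 0.307). Vehicle library 3 overlapped the FL-NfL group there. Cluster 14 of NPC took 7.86% to 70.8% after vehicle and 4.38% to 32.5% after FL-NfL (-1.62, SE 1.56, limma adjusted p = 0.601).

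**Figure D5:**
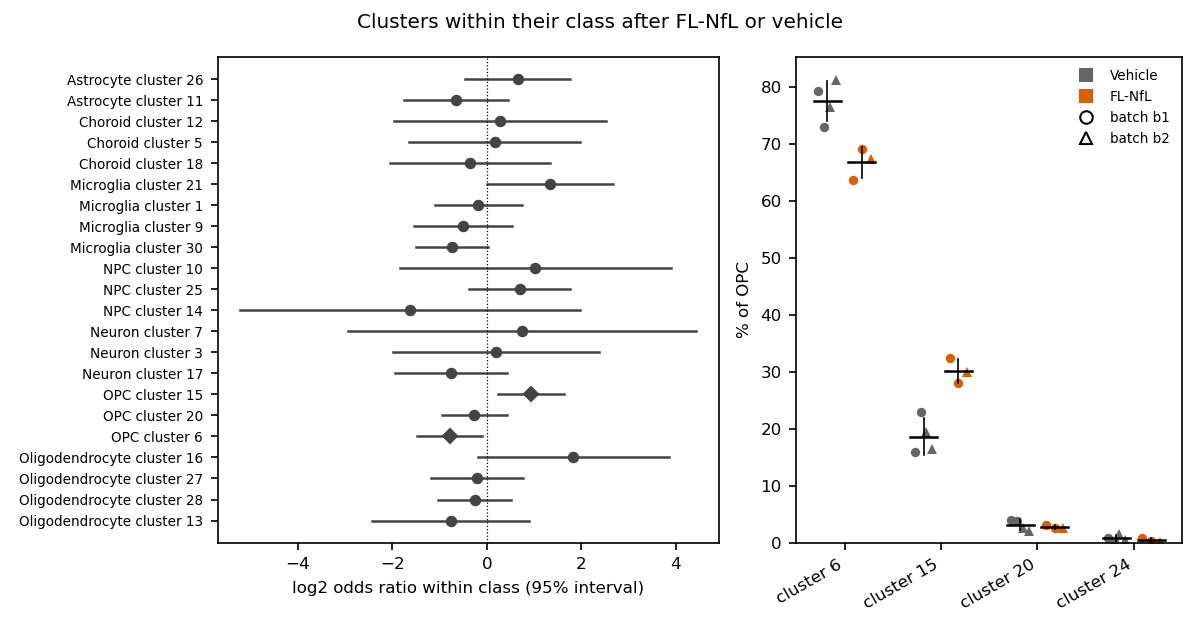
Left, log2 odds ratio of each of the 22 tested clusters within its class with its 95% interval, where diamonds mark clusters whose groups do not overlap and none has a limma adjusted p under 0.05. Right, percent of OPC in each of their 4 clusters, 1 point per library with batch by symbol, the bar at the group mean and the line at ± 1 SD; the FL-NfL libraries lie between 28.1% and 32.4% for cluster 15, above all vehicle libraries.

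FL-NfL was also set against CC-NfL directly, since both groups share the vehicle libraries as controls. The macrophage share was 4.05% ± 1.96 in CC-NfL libraries and 7.36% ± 2.05 in FL-NfL libraries (SD, n = 3 each), a difference of 1.02 in log2 odds (95% interval -0.11 to 2.14, limma adjusted p = 0.378). Activated macrophages made up 59.8% ± 17.8 and 58.1% ± 16.2 of macrophages. The FL-NfL minus CC-NfL difference in macrophage states ran from -0.29 for Activated_1 to 0.54 for MHC2_high_1 (limma adjusted p = 0.782 for each). Their 95% intervals, -2.59 to 2.01 and -1.79 to 2.87, were wide, so likeness of the groups was not shown. Among the 13 classes, clusters and states that were called or separated after FL-NfL, limma called 0 as different from CC-NfL, and 0 had an unadjusted p under 0.05. These 13 are not separate results, since some count the same cells again. Clusters 32 and 29 are the macrophages and the other immune cells, and microglial subcluster 7 is the Activated_2 state. Over all items tested it also called 0.0% in every family. Of all 16 classes 1 had an unadjusted p under 0.05. This was BMEC, named after its values were seen, with 1.57%, 1.58%, 1.70% and 1.33% of cells in the vehicle libraries, 2.04%, 1.37% and 1.40% in the FL-NfL libraries and 0.509%, 1.23% and 0.672% in the CC-NfL libraries (FL-NfL minus CC-NfL 1.08, 95% interval 0.15 to 2.00, limma adjusted p = 0.378). The quasi-binomial model called 1 of the 13 items, macrophage Activated_3, higher after FL-NfL by 0.57 (adjusted p = 0.0379), which is 16.7% of the 6 macrophage states.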

How the data were processed

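Droplet single-cell 3′ libraries came from dissociated hippocampi sorted for live cells, per the labels' protocols. Per the submitters' processing notes, Cell Ranger 6.0.1 and the build GRCm38 were used. The deposited table gives, for each barcode, its library, batch, class, cluster, states and map positions. The sources used here do not give the filters, the clustering, the treatment of doublets or the naming rules. From it, cells per library were counted. The log2 odds of each item, with 0.5 added to both counts, went into a linear model of group plus batch across the 10 libraries (limma 3.58.1 under R 4.3.3). Items averaging 10 or more cells per library were tested, p-values were two-sided and adjusted within a family by the Benjamini-Hochberg method, and an adjusted p under 0.05 was called. Ratios and single shares were compared by exact permutation of the 35 arrangements of 7 libraries, and within batch. Intervals on 1 library are exact (Clopper-Pearson, 95%), a count of 0 was taken to allow 3 cells, and both cover counting error only. All classes and states were described, and clusters were named by non-overlap, a call or the size of the estimate. The limma fit was tested on simulated counts of the cell classes, with the same spread set for every class and only small classes changed. The permutation tests, the quasi-binomial model, the states and the clusters were not tested in this way. The comparison, the items and the lists were chosen with earlier results of these data known, and the fit without Granulocytes was chosen after seeing the data.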

Additional observations from a re-analysis of the deposited data

Results flagged for a closer look

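In 4 of 50 groups of 4 vehicle libraries (8%), 1 library lay far from the other 3, where chance gives about 1 in 20. Vehicle library 4 held 1.05% macrophages, below the other vehicle libraries and so farther from the FL-NfL group. Vehicle library 1 held 16.8% NPC, and the other libraries numbered 1 were high too, with 13.5% in FL-NfL library 1 and 20.5% in CC-NfL library 1 against 1.82% to 5.88% elsewhere. Vehicle library 4 held 0.0114% Reelin neurons, which is 1 cell. Vehicle library 2 had 33.3 activated per 100 MHC2-named macrophages, the vehicle value nearest to the FL-NfL libraries. Groups of 3 FL-NfL libraries cannot be examined in this way.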

How the results depend on the processing

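Limma called 2 classes, 2 clusters and 5 macrophage states. In b1 alone it called 0, 0 and 0, and 1 microglial subcluster. Over all barcodes it called 1 class and 0 clusters. It called 1 cluster on the arcsine scale, with the centred log ratio and without the most abundant class. It called 1 microglial state with the centred log ratio, and 1 subcluster on the arcsine scale. A minimum of 50 cells left 3 macrophage states called, with fewer states tested, and leaving out the libraries numbered 1 left 2 macrophage states and 0 clusters. Leaving out 1 library gave 0 to 2 classes, 0 clusters and 2 to 6 macrophage states. It also gave 0 of the 7 immune ratios throughout, which says nothing about them. The exact permutation of the libraries left cannot give a p under 0.05. How single libraries moved the difference between batches is given above as sizes of effect. Untransformed ratios gave 5 calls of 7. The quasi-binomial model called 1 difference from CC-NfL. With a replicate block in place of batch, limma called 2 classes, 5 macrophage states and 0 clusters (cluster 32 at 2.27, adjusted p = 0.0998, and cluster 29 at 2.14, adjusted p = 0.103). With the block, the SE of NPC was 0.53 (1.04 without it) and Reelin neurons moved from -0.90 to -2.22 (adjusted p = 0.192). Whether equal numbers pair the libraries is unclear: deviations from the group mean of FL-NfL and vehicle libraries with the same number correlated at -0.154, -0.0515 and 0.402, with 1 of 3 FL-NfL libraries correlating best with its own number, and those of CC-NfL and vehicle libraries at 0.132, 0.406 and 0.185.

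A change of sign was counted as a reversal, by a rule chosen after seeing the data, where the value was called or moved by over 1 SE. As shares of all cells, MHC2_high_1 turned to 0.79 and MHC2_low to 0.48. In b1 alone microglia turned to 0.32 and proliferating microglia (subcluster 9) to 0.50, and leaving out 1 library moved the latter from -0.56 to 0.42, the highest without FL-NfL replicate 3. Without vehicle replicate 1 neurons turned to -0.51 (-0.49 of non-immune cells) and Activated_3 microglia (subcluster 8) to -0.019, while leaving out 1 library gave up to 0.59 and 1.52. Without the libraries numbered 1, Reelin neurons (cluster 19) turned to 0.86 (0.89 of non-immune cells), VECA to 0.54 (0.58), VLMC (cluster 22) to 1.01 (1.04), Activated_3 microglia to -0.32 and subcluster 5 to 0.20. Without FL-NfL replicate 1, which held 0 VLMC, that class turned to 0.75 (0.88), against a lowest value of -2.10 (-2.01) without FL-NfL replicate 2. Subcluster 3 turned to 0.23 in the quasi-binomial model. The causes of these changes were not tested. Of 1171 alternative values for single items, 1085 kept their side of the threshold without a reversal by this rule. These 1085 include changes of sign too small for the rule. The astrocyte class, for example, ran from -0.49 to 0.33. Depth limits the vehicle macrophage states most, with 52 to 149 cells a library.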
